A study of Arabidopsis thaliana with 10 samples.

Results

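The glutamate receptor-like (GLR) channel genes of Arabidopsis were followed in leaves of 2 lines through 3 growth regimes. Members were all probe sets that name 1 gene alone and whose gene symbol is GLR plus a number, with or without a leading AT, in the probe annotation used here, with the brightest probe set standing for a gene. The rule found 8 genes among the 13356 genes that have a probe set of their own: GLR1.2 (AT5G48400), GLR1.4 (AT3G07520), GLR2.7 (AT2G29120), GLR2.8 (AT2G29110), GLR2.9 (AT2G29100), GLR3.3 (AT1G42540), GLR3.5 (AT2G32390) and GLR3.6 (AT3G51480). Each had 1 such probe set. The family list used here holds 20 genes, and the other 12 are not analysed here as single genes. One probe set names GLR2.2 and GLR2.3 together and was therefore no member. It read 2.9 to 3.4 on the 10 arrays.

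Plant GLR proteins are relatives of the ionotropic glutamate receptors of animal synapses. They form cation channels that pass calcium and open to several amino acids, and they are sorted into clades that the first digit of the name gives. In leaves they are known for calcium entry and for electrical signals that travel from a wounded leaf to distant leaves and set off jasmonate synthesis there. On chromosome 2 GLR2.9, GLR2.8 and GLR2.7 are direct neighbours in the reference gene table, and GLR1.2 lies next to GLR1.3 and GLR3.5 next to AT2G32400 (GLR3.7). Probe sets of such related neighbours may bind each other's transcripts, which was not tested.

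All plants were of the accession Columbia. One line carried 35S:PAP1, in which the always-active 35S promoter of a plant virus expresses PAP1, a MYB-type activator of anthocyanin synthesis, and the other an empty vector (arrays marked Hex, read as this line because the series names no other). Whether a line stands for 1 transformant, and the age of the plants, is not given in the sources used here. Each line gave 1 array of pooled leaf tissue on days 1, 2, 7, 8 and 12, so 10 arrays in all, with no line replicated on any day. The labels give days only. The order of regimes in the series description places day 1 at 22 °C in bright light, days 2 and 7 in warm dim growth at 30 °C, and days 8 and 12 in cool bright growth at 15 °C. Irradiance was 440 µmol per square metre and second in both bright regimes and 150 in the dim one. Day and plant age changed together in every contrast between days. Temperature changed with them between regimes, and so did irradiance between the dim regime and a bright one. Those that changed together cannot be told apart. From day 2 to day 7 and from day 8 to day 12 temperature and irradiance, as read here, stayed the same. In whole leaves, fewer cells of a type and less RNA per cell cannot be told apart either.

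Values are the deposited log2 expression values per probe set. They are compared within a gene only, since probe sets differ in brightness. Leaf antenna genes LHCB4.1 to LHCB4.3 read 6.7 to 13.6. The root genes EXPA7, EXPA18 and PYK10 read 3.5 to 5.1 and the seed coat gene BAN 3.3 to 3.7. The highest value of BAN and EXPA7, 3.9, is used below as a dim limit, because the values carry no detection call. It is a low choice, since EXPA18 reached 4.1 and PYK10 5.1. A higher limit from these root genes was not tried. Markers planned for leaf, root, seed coat, pollen, guard cell, vascular and senescent tissue numbered 31. In the probe annotation used here 7 of them had a probe set of their own. None of these 7 marks pollen, guard cells, vasculature or senescence. One array of 35S:PAP1, that of day 2, stood apart in RNA quality: the signal at the 5′ end of actin was below that at its 3′ end by a log2 difference of -2.5, against -1.5 to -1.2 on the other 9 arrays, a gap that widens in degraded RNA. Both day 7 arrays read 3.25 for the spiked poly-A controls, against 4.4 to 5.6 on the other 8.

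The pattern shared by most of the 8 members was a rise within the cool bright regime. From day 8 to day 12, all 5 members of clades 1 and 2 rose, which does not speak for clade genes not measured here. None of the 3 clade 3 members rose, and 1 of them, GLR3.5, fell. The clade 2 probe set that names GLR2.2 and GLR2.3 together, no member, stayed under the dim limit. It read 3.2 in both lines on day 8, and 3.3 in the empty vector and 3.2 in 35S:PAP1 on day 12. In all 6 of 8 members were called, 5 higher and 1 lower. Of all 22746 probe sets 20.2% were called, 10.7% as higher and 9.44% as lower. Of the 5 members called higher, GLR1.2 and GLR2.9 were at or under the dim limit on most arrays. GLR2.9 read 3.1 in the empty vector and 3.3 in 35S:PAP1 on day 8, and 4.1 and 3.8 on day 12. With only probe sets kept whose mean was above the dim limit, 5 members were called. GLR2.9 was not among them. The median change was 0.80 log2 units over the 8 members and -0.05 over all probe sets, and the median size of change, sign aside, was 0.88 and 0.25. Calls here and below are limma results with Benjamini-Hochberg adjusted p under 0.05 over all probe sets. They rest on 2 arrays a day, 1 per line. The count of 6 fell to 1, GLR1.4, without the empty vector array of day 8 or that of day 12, to 2 without the 35S:PAP1 array of day 8 and to 3 without that of day 12. Leaving out 1 array of another day gave 4 or 5, and leaving out both warm dim arrays of 35S:PAP1 gave 3. No label names separate plants as replicates. The p-values between days and between lines rest on how far the 2 lines disagree in their changes over the days. Spread between separate harvests of the same day is not in them.

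**Figure D1:**
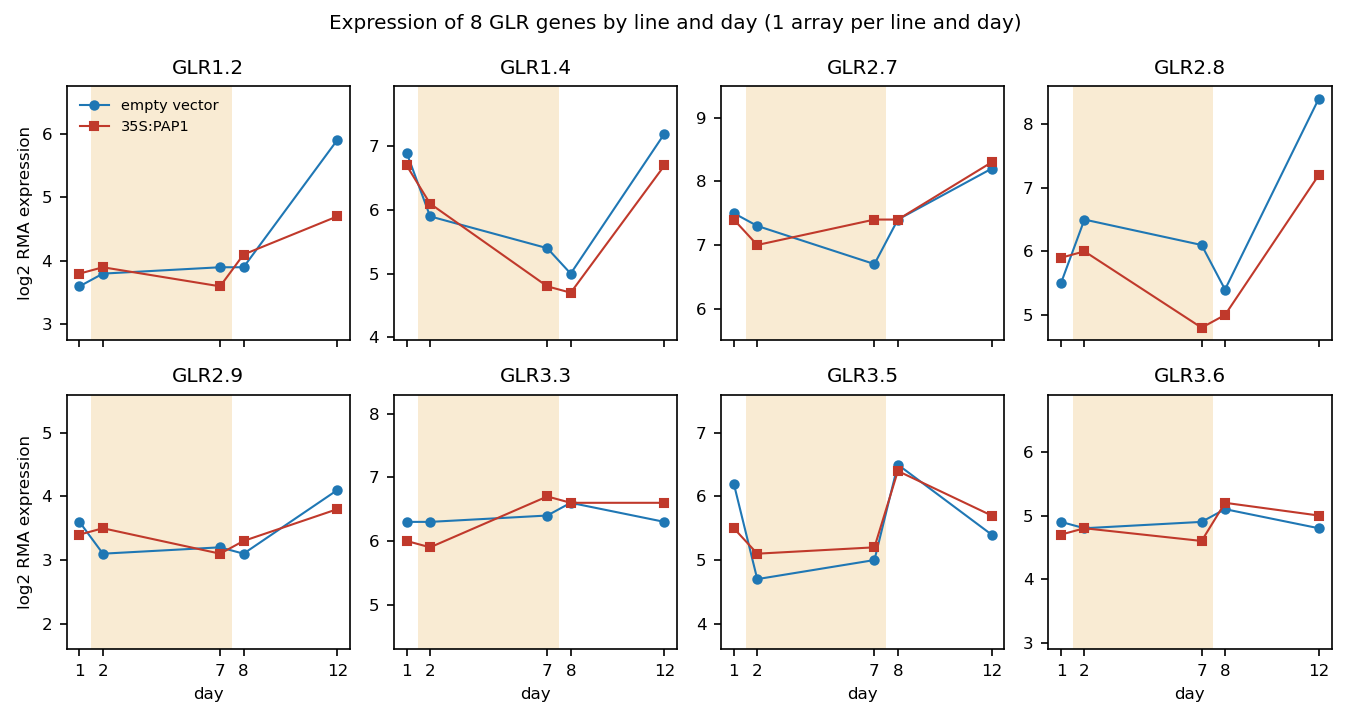
Deposited log2 expression (vertical axis, each panel spanning the same number of log2 units) of the 8 GLR genes by day, with blue circles for the empty vector and red squares for 35S:PAP1, 1 array each; the shaded band marks the days read as warm dim growth. GLR1.2, GLR1.4, GLR2.7, GLR2.8 and GLR2.9 stand higher on day 12 than on day 8 in both lines, and GLR3.5 peaks on day 8 at 6.5 and 6.4.

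GLR1.4, a clade 1 channel known from expression in frog oocytes to open to methionine, fell through the warm dim days and came back by day 12. In the empty vector it read 6.9, 5.9, 5.4, 5.0 and 7.2 on days 1, 2, 7, 8 and 12. In 35S:PAP1 it read 6.7, 6.1, 4.8, 4.7 and 6.7. Both lines were lowest on day 8 and back near their day 1 level on day 12, and on days 7 and 8 neither line reached the values of either line on days 1 and 12.

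The fitted change of GLR1.4 from day 1 to day 2 was a fall by 0.80 ± 0.20 on the log2 scale (SE, limma adjusted p = 0.0449). From day 1 to day 7 it fell by 1.70 ± 0.20 (adjusted p = 0.00546). From day 8 to day 12 it rose by 2.1 ± 0.20 (4.29-fold, adjusted p = 0.00083). Day 12 against day 1 gave 0.15 ± 0.20 (adjusted p = 0.766). It was the 1 member called on day 2, where 9.94% of all probe sets were called, and the 1 member called on day 7 against day 1, where 9.65% were. The day 2 call was lost when any 1 of the 8 arrays of days 1, 2, 8 and 12 was left out. With each array centred on its median it gave adjusted p = 0.0533, with days alone 0.0789, and with both warm dim arrays of 35S:PAP1 (days 2 and 7) left out 0.124. The day 7 call was lost without either day 1 array (highest adjusted p = 0.0620) and without those 35S:PAP1 arrays (0.0893). The day 12 rise kept its call in every one of the 10 fits that left out 1 array, at 1.96 to 2.24.

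GLR1.2, the other clade 1 member, is known for a role in calcium entry into pollen tubes. In the empty vector it read 3.6, 3.8, 3.9, 3.9 and 5.9 on days 1, 2, 7, 8 and 12. In 35S:PAP1 it read 3.8, 3.9, 3.6, 4.1 and 4.7. It was at or under the dim limit on 7 of the 10 arrays, and the day 12 arrays were the highest of each line.

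Its fitted rise from day 8 to day 12 was 1.3 ± 0.33 log2 units (limma adjusted p = 0.0284). The size is uncertain, because the empty vector value of day 8, 3.9, was at the dim limit. Against day 1 the fitted rise was 1.60 ± 0.33 (adjusted p = 0.0485), with the day 1 values of both lines under the limit. The change from day 8 was 2.0 in the empty vector and 0.6 in 35S:PAP1. Without the empty vector day 12 array the fitted rise was 0.68 and was not called (adjusted p = 0.128). Leaving out the empty vector day 8 array gave 1.05, also not called (adjusted p = 0.222), and leaving out the 35S:PAP1 day 12 array gave 1.93, which was called (adjusted p = 0.0154). The day 12 calls of GLR1.2 were lost in 7 of 10 such fits against day 8, and in 9 of 10 against day 1.

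Within clade 2, GLR2.7, GLR2.8 and GLR2.9 are known for calcium entry after the perception of microbial patterns. GLR2.8 varied most of all 8 members, with a standard deviation of 1.08 over the 10 arrays, above that of 97.7% of all probe sets. In the empty vector it read 5.5, 6.5, 6.1, 5.4 and 8.4 on days 1, 2, 7, 8 and 12. In 35S:PAP1 it read 5.9, 6.0, 4.8, 5.0 and 7.2. The day 12 arrays were the highest of each line and both stood above all 8 arrays of the other days.

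GLR2.8 rose from day 8 to day 12 by 2.6 ± 0.37 (6.06-fold, limma adjusted p = 0.00321) and stood above day 1 by 2.1 ± 0.37 (4.29-fold, adjusted p = 0.0341). The change from day 8 was 3.0 in the empty vector and 2.2 in 35S:PAP1. The lines took different courses on warm dim days: from day 1 to day 7 the empty vector changed by 0.6 and 35S:PAP1 by -1.1, each from single arrays. The fitted change over both lines was -0.25 ± 0.37 (adjusted p = 0.727). The call against day 8 was lost without the empty vector array of day 8 or that of day 12 (highest adjusted p = 0.0524), and the call against day 1 was lost in 9 of the 10 fits that left out 1 array. GLR1.2 and GLR2.8 were the 2 members called on day 12 against day 1, where 2.8% of all probe sets were called.

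GLR2.7 lies beside GLR2.8 in the genome and moved less. In the empty vector it read 7.5, 7.3, 6.7, 7.4 and 8.2, and in 35S:PAP1 7.4, 7.0, 7.4, 7.4 and 8.3, in the same order of days. Both day 12 arrays were above the other 8. It rose by 0.85 ± 0.23 from day 8 (1.80-fold, limma adjusted p = 0.0349), by 0.8 in the empty vector and 0.9 in 35S:PAP1. Against day 1 it gave 0.80 ± 0.23 (adjusted p = 0.109). The call against day 8 was lost without any 1 array of days 1, 8 or 12 (highest adjusted p = 0.185). On day 7 the empty vector read 6.7, its lowest value, and 35S:PAP1 read 7.4.

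GLR2.9 was at or under the dim limit on 9 of the 10 arrays. It read 3.1 to 4.1 in the empty vector and 3.1 to 3.8 in 35S:PAP1, highest on day 12 in both. The change from day 8 was 0.75 ± 0.19 (limma adjusted p = 0.0291), and no fold is given because the 35S:PAP1 value on day 12, 3.8, lay within the range of the genes that set the limit. The call was lost without any 1 array of days 8 or 12 (highest adjusted p = 0.220).

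**Figure D2:**
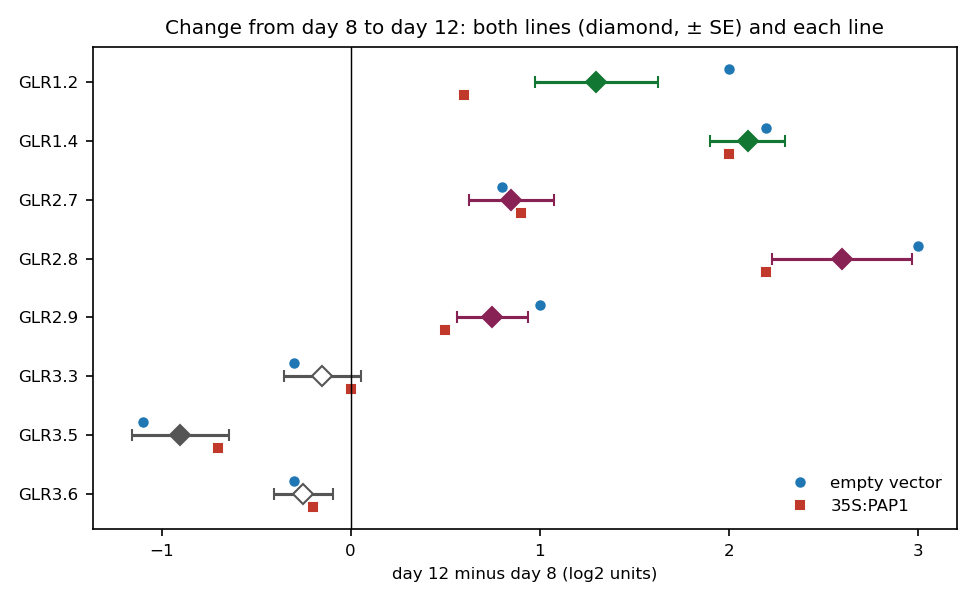
Change from day 8 to day 12 in log2 units (horizontal axis) for the 8 GLR genes; diamonds are the fitted change over both lines with SE (filled where adjusted p is under 0.05), green for clade 1, purple for clade 2 and grey for clade 3, and circles and squares are the single-array changes of the empty vector and of 35S:PAP1. The 5 genes of clades 1 and 2 lie to the right of 0 at 0.75 to 2.6, and GLR3.5 lies at -0.90. GLR1.2 and GLR2.9 were at or under the dim limit on most arrays.

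Clade 3 holds the members best known for leaf-to-leaf signalling, and 2 of its 3 members measured here changed little. GLR3.3 is known for carrying wound signals in the phloem. On days 1, 2, 7, 8 and 12 the empty vector gave 6.3, 6.3, 6.4, 6.6 and 6.3. In 35S:PAP1 it read 6.0, 5.9, 6.7, 6.6 and 6.6. GLR3.6 acts with it in cells around the xylem. Its empty vector values were 4.9, 4.8, 4.9, 5.1 and 4.8. In 35S:PAP1 it read 4.7, 4.8, 4.6, 5.2 and 5.0. GLR3.6 had a standard deviation of 0.18 over the arrays, above that of 29.3% of all probe sets, and GLR3.3 one of 0.27, above that of 49.2%.

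Neither gene was called in any of the 6 contrasts between days. The largest fitted changes were 0.45 ± 0.20 for GLR3.3 from day 2 to day 7 (limma adjusted p = 0.361) and 0.40 ± 0.16 for GLR3.6 from day 7 to day 8 (adjusted p = 0.110). From day 8 to day 12 they gave -0.15 ± 0.20 (adjusted p = 0.692) and -0.25 ± 0.16 (adjusted p = 0.337).

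GLR3.5, a clade 3 channel known from guard cells and mitochondria, peaked on the first cool bright day. In the empty vector it read 6.2, 4.7, 5.0, 6.5 and 5.4 on days 1, 2, 7, 8 and 12. In 35S:PAP1 it read 5.5, 5.1, 5.2, 6.4 and 5.7. The 4 arrays of the warm dim days, 4.7 to 5.2, were below the 6 arrays of the bright days, 5.4 to 6.5, and both day 8 arrays were above the other 8. How many of all probe sets parted by regime in this way was not counted, and the regime test given below did not call GLR3.5.

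From day 7 to day 8 GLR3.5 rose by 1.35 ± 0.26 (2.55-fold, limma adjusted p = 0.00793), by 1.5 in the empty vector and 1.2 in 35S:PAP1. It was the 1 member called in this contrast, where 23.8% of all probe sets were. From day 8 to day 12 it fell by 0.90 ± 0.26 log2 units (adjusted p = 0.0439). The day 2 minus day 1 difference, -0.95 ± 0.26, did not pass (adjusted p = 0.0570). It was -1.5 in the empty vector and -0.4 in 35S:PAP1, and it was called when the line term or the 35S:PAP1 day 1 array was left out, or when dim probe sets were removed. The day 8 rise was not called without the empty vector array of day 7 or of day 8 (highest adjusted p = 0.0833), nor with both warm dim arrays of 35S:PAP1 left out, which put it at 1.53 (adjusted p = 0.0795). The fall to day 12 was not called in 8 of the 10 fits that left out 1 array (highest adjusted p = 0.282). No member was called from day 2 to day 7, where limma called 0.0747% of all probe sets, and 1 member, GLR1.4, had an unadjusted p under 0.05.

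The comparison of 35S:PAP1 with the empty vector asks whether the red-leaved line differed in GLR expression over the 5 days. No member differed by limma with day as a block, where 0.0791% of all probe sets were called, and 1 member, GLR2.8, had an unadjusted p under 0.05. For all 8 genes the ranges of the 2 lines over the 5 days overlapped. Those ranges hold the changes between days, so the overlap does not bear on the paired line difference. GLR2.8 gave -0.60 ± 0.23 (unadjusted p = 0.0351, adjusted p = 0.689) and was lower in 35S:PAP1 on 4 of 5 days. GLR1.4 gave -0.28 ± 0.12 (adjusted p = 0.700), also lower on 4 of 5 days, and GLR1.2 gave -0.20 ± 0.21 (adjusted p = 0.841). The other 5 genes gave between -0.04 and 0.08. The median over the 8 members was -0.03 and over all probe sets 0.02.

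On single days the lines parted by at least 1 log2 unit for 2 members. GLR2.8 in 35S:PAP1 minus empty vector was 0.4, -0.5, -1.3, -0.4 and -1.2 on days 1, 2, 7, 8 and 12. GLR1.2 was 0.2, 0.1, -0.3, 0.2 and -1.2. Thus 1 member passed this size on day 7, where 6.15% of all probe sets did, and 2 on day 12, where 2.25% did. On days 1, 2 and 8 no member did, against 1.04%, 2.29% and 1.07% of all probe sets. A difference of -1.2 or lower was seen on day 12 in 1.14% of all probe sets. These differences rest on 1 array per line and have no replicate check.

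**Figure D3:**
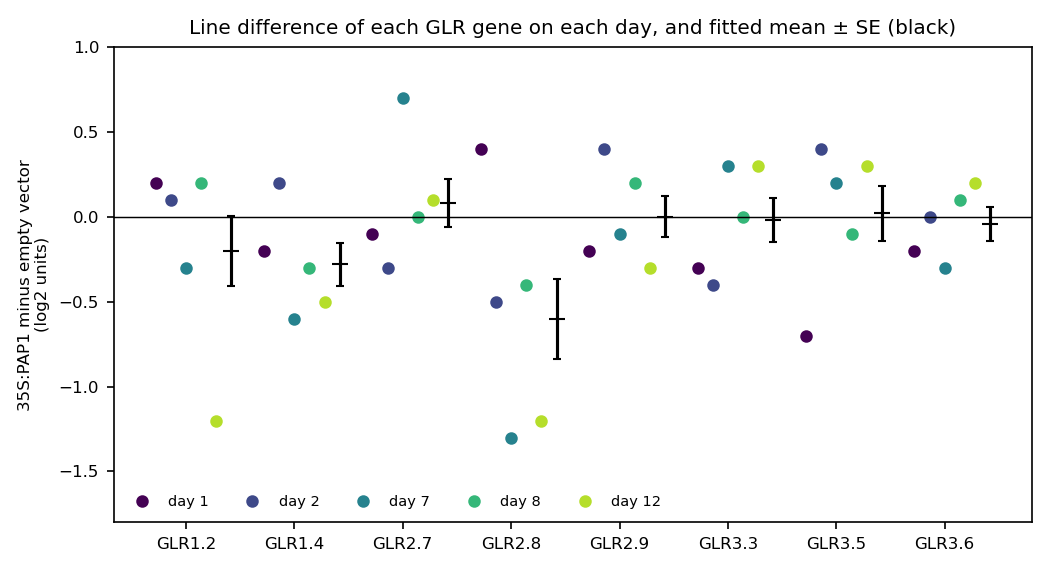
Difference of 35S:PAP1 minus empty vector in log2 units (vertical axis) for each GLR gene on each day (coloured points, 1 array per line), with the fitted mean over the 5 days and its SE in black. GLR2.8 lies below 0 on 4 of 5 days, and the day 12 points of GLR1.2 and GLR2.8 both lie at -1.2.

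Warm dim days were set against bright days on the 5 day means, with days as units. No member passed, and limma called 0% of all probe sets (0 called, 3788 with unadjusted p under 0.05). The differences of the members lay between -0.95 and -0.08, with a median of -0.46 against -0.03 over all probe sets. The largest was GLR3.5 at -0.95 ± 0.29 (unadjusted p = 0.0232, adjusted p = 0.228). How many of all probe sets were also negative was not counted. The bright side holds the day 12 values. Day means of GLR2.8 were 6.25 and 5.45 on days 2 and 7, against 5.7, 5.2 and 7.8 on days 1, 8 and 12. For GLR1.4 the lowest day mean, 4.85, was on bright day 8. For GLR3.5 both warm dim day means, 4.9 and 5.1, were under those of every bright day. With the 10 arrays as units GLR3.5 was called, but that setting counts the arrays of a day as independent, which was not tested. Same-day arrays deviated together from the means of their lines, though those deviations hold the change between regimes itself. The test of whether the line difference changed with regime called 0% of probe sets (0 called by limma, 2052 with unadjusted p under 0.05, of which 0 were members).

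The genes whose profiles were most like those of the 3 most variable members were looked up among 5321 genes with a standard deviation of at least 0.3, by Pearson correlation over the 10 arrays. Same-day arrays are not independent, so the correlations are descriptions. For GLR2.8 they were AT1G13340 (r = 0.983), AT1G51920 (0.974) and AT4G39830 (0.964). On days 8 and 12 AT1G13340 was at 5.5 and 9.0 in the empty vector, and at 4.7 and 7.8 in 35S:PAP1. For GLR1.4 they were AT1G35710 (0.982), SAL2 (AT5G64000, 0.982), which encodes a phosphatase related to SAL1, and the carboxylesterase gene CXE20 (AT5G62180, 0.970). On days 1, 2, 7, 8 and 12 the empty vector values of SAL2 were 7.4, 6.3, 5.2, 4.6 and 8.2. For GLR1.2 they were the metalloproteinase gene MMP (AT1G70170, 0.962), AT1G55790 (0.958) and AT4G28460 (0.954). GLR1.2 was at or under the dim limit on 7 of the 10 arrays. MMP and AT1G55790 each read 3.3 to 4.0, near that limit, on all arrays but those of day 12. No GLR gene was among these 9 genes.

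**Figure D4:**
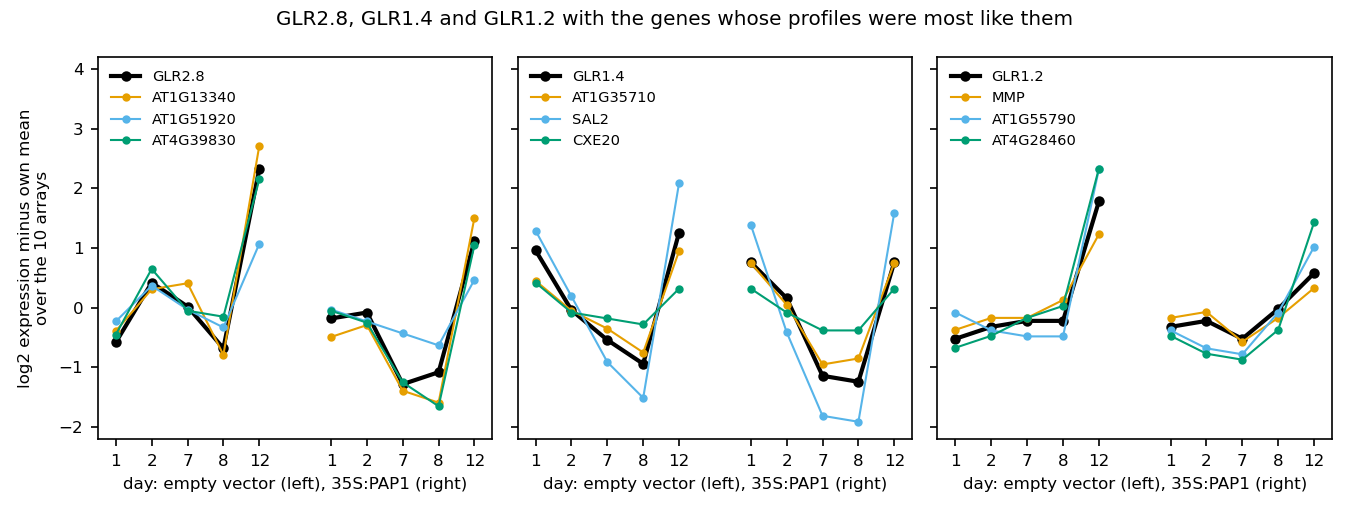
Log2 expression minus each gene's own mean over the 10 arrays (vertical axis) for GLR2.8, GLR1.4 and GLR1.2 in black and the 3 genes most like each in colour, by day, with the empty vector on the left and 35S:PAP1 on the right of each panel. GLR2.8 and its 3 genes are highest on day 12 in both lines, while GLR1.4 and its 3 genes are lower on days 7 and 8 than on days 1 and 12.

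Lists of partner genes could be followed only in small part. The probe annotation used here names 1 gene alone for 13513 of the 22746 probe sets, so the array may carry genes that cannot be followed here. None of 20 cyclic nucleotide-gated channels, 20 calcium pumps and exchangers or 9 calcium-dependent kinases had a probe set of their own in it. Nor had any of 25 jasmonate genes or 21 genes of glutamate metabolism. Of 25 immune signalling genes 4 had one: the receptor kinase EFR, the kinase BIK1, the transcription factor WRKY53 and SAG101, a partner of the immune regulator EDS1. From day 8 to day 12, 1 of these 4 was called. SAG101 rose by 1.60 ± 0.31 (limma adjusted p = 0.0110), from 5.4 to 7.1 in the empty vector and from 4.9 to 6.4 in 35S:PAP1. WRKY53 gave 1.1 ± 0.48 (adjusted p = 0.163), BIK1 0.35 ± 0.24 (adjusted p = 0.388) and EFR -0.60 ± 0.21 (adjusted p = 0.0828). In the other 5 day contrasts and between the lines none of the 4 was called. The closest was BIK1 on day 7 against day 1 (0.95 ± 0.24, adjusted p = 0.05002).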

How the data were processed

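RNA of pooled leaves was biotin-labelled for Affymetrix arrays, per the labels' protocols. The file holds log2 expression values deposited by the authors after RMA, which the submitters' processing notes name without settings. They carry 1 decimal, and array medians were 5.5 to 5.7. Arrays give no read depth; their number limits the precision. From the 22810 probe sets 64 array controls were removed, and 0 sample columns were unused. All 8 members matched the reference gene table.

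Tests used limma 3.58.1 (lmFit, eBayes; R 4.3.3) on all probe sets, after a trial on simulated data. Line and day contrasts came from 1 model of day and line (4 residual degrees of freedom), the regime contrast from 5 day means and the interaction from 5 line differences (3 each). Labels pair the arrays by day: arrays of the same day deviated together from the means of their lines (correlations of 0.49 to 0.84). These deviations hold the changes between days and regimes. Alternatives changed the block, centring, dim filter, prior and arrays. Every member was named, with 3 genes most like each of the 3 most variable members, and list genes. Members and lists were chosen with earlier results of these data known. No sequences were used here.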

Additional observations from a re-analysis of the deposited data

Results flagged for a closer look

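The empty vector day 12 array stood far from the other 4 arrays of its line for GLR1.2. It read 5.9, and the nearest other array read 3.9. The gap was 0.87 of the whole range of the line, above the critical value of 0.71 for 5 arrays. The other 4 arrays read 3.6 to 3.9, all at or under the dim limit, so their spread and this share are uncertain. In 35S:PAP1 the day 12 array was also the highest, at 4.7. Of 16 groups tested, 8 genes in each of 2 lines, 1 stood out in this way, and chance gives about 1 in 20. The 5 arrays of a line come from different days, so the spread within a line holds the changes between days.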

How the results depend on the processing

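GLR1.4 kept its rise from day 8 to day 12 under all 15 alternatives, at 1.96 to 2.24. With both warm dim arrays of 35S:PAP1 (days 2 and 7) left out, 3 members (GLR1.4, GLR2.7 and GLR2.8) were called in that contrast. Leaving out 1 array gave 1 to 5, with GLR1.4 alone left without the empty vector array of day 8 or of day 12. Without the same pair of 35S:PAP1 arrays, 0 members were called on day 2 against day 1, day 7 against day 1 and day 12 against day 1, and leaving out 1 array gave 0 to 1 in each. On day 2 centring gave 0 and the dim filter 2 (GLR1.4 and GLR3.5). On day 12 against day 1 it was 0 with days alone and 1 with centring (GLR2.8). On day 8 against day 7 leaving out 1 array gave 0 to 2. With the 10 arrays as units, the regime contrast called 1 member (GLR3.5) and 2239 probe sets. A trended, robust prior called 2 probe sets there and 0 members.

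Between the lines, 0 members were called under all alternatives, the fit with no replicate block included. That fit called 8 probe sets, the dim filter 32, and leaving out 1 day gave 0 to 13. Small line differences turned sign. Leaving out 1 day moved GLR1.2 between -0.3 and 0.05, GLR2.7 between -0.075 and 0.175, GLR3.3 between -0.1 and 0.075, GLR3.5 between -0.075 and 0.2 and GLR3.6 between -0.1 and 0.025. With that pair of arrays left out, GLR3.5 gave -0.17 and GLR3.6 0.033.

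Over all probe sets, leaving out 1 array gave 0 to 2749 calls on day 2 against day 1, 137 to 1567 on day 7 against day 1, 0 to 138 on day 7 against day 2, 2191 to 4970 on day 8 against day 7, 1429 to 4723 on day 12 against day 8 and 4 to 383 on day 12 against day 1. Where leaving out 1 day or array gave 0 calls by limma, 1039 to 3970 had an unadjusted p under 0.05. With the same pair left out limma called 3453 on day 8 against day 7. It called 0 between the lines and in the other contrasts that use days 1 or 2, where 1272 to 6086 had an unadjusted p under 0.05. With days alone day 12 against day 1 gave 416, and the trended, robust prior gave 38 on day 7 against day 2. Centring moved the higher share of calls from 45.8% to 35.0% on day 7 against day 1 and from 47.4% to 60.2% on day 8 against day 7, and it turned no called member. Fits with fewer arrays have fewer degrees of freedom; other causes were not tested. No member has another probe set, so that alternative was not run.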
